A study of Mus musculus with 16 samples.

Results

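Potassium channel genes were taken as the rows of the deposited expression table whose symbol is Kcn followed by lower-case letters and a final number, which gave 92 of the 55492 genes listed. RNA sequencing had been carried out on left ventricles of 16 male C57BL/6 mice aged 8 to 12 weeks. Control mice carried the floxed gene for the muscle isoform 2 of pyruvate kinase, a glycolytic enzyme, and are called PKM2fl/fl. PKM2-/- mice lacked exon 10 of that gene in every tissue, because PKM2fl/fl mice had been crossed with mice carrying a CMV-driven Cre that was later bred out, so the knockout is not limited to cardiomyocytes. Each genotype was sampled at baseline without surgery (n = 2), and 3 days after sham surgery (n = 3) or after myocardial infarction (MI) by permanent ligation of the left anterior descending artery (n = 3). The labels give no other agent or allele.

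Potassium channels let potassium leave the cell, which ends the action potential and holds the resting potential. In the mouse ventricle, fast transient outward and delayed rectifier currents carried by voltage-gated channels shape most of the repolarization, the inward rectifiers set the resting potential, and ATP-sensitive channels couple membrane potential to metabolism. Accessory subunits change the trafficking and gating of these channels, and silent subunits pass current only when joined to other subunits. Other channel genes are expressed mainly in leukocytes, vascular smooth muscle or nerve.

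Library size ranged from 20623769 to 71855101 reads on genes. Of the 92 channel genes, 3 had no read in any library, and 63 had a mean of at least 10 normalized counts over the 16 libraries and were tested. Normalized counts are reads divided by the size factor of the library. The highest of the 29 untested genes was Kcnk4 with a mean of 9.70, and the lowest of the tested genes was Kcnj10 with 11.1. Of 22 repolarizing channel genes listed for the mouse ventricle, 19 passed and 3 did not. The rows for Kcn names that are antisense or host transcripts or otherwise fell outside the rule (7 names) were not counted. The expression of Pkm, which is summed over all exons, ranged from 7779 to 14242 normalized counts in sham libraries and cannot show the loss of exon 10.

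The percentage of reads that fell on rRNA-related loci differed among libraries, from 15.8% to 46.0%, although rRNA had been depleted. It was 43.7%, 19.8% and 44.5% in the PKM2fl/fl MI libraries and 16%, 30.8% and 34.2% in the PKM2-/- MI libraries. Both baseline groups stood apart, at 17.2% and 22.1% in PKM2fl/fl and 43.8% and 39.6% in PKM2-/-. The ventricle itself was checked by its markers. The summed normalized counts of 8 cardiomyocyte markers ranged from 823563 to 1065595 in the 10 baseline and sham libraries, and were 415783, 393013 and 175771 in the PKM2fl/fl MI and 264946, 192265 and 186274 in the PKM2-/- MI libraries. In bulk tissue, fewer cells of a type and less RNA per cell cannot be told apart.

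After sham surgery in PKM2fl/fl hearts, the channel genes were ordered by normalized counts per kb of merged exons, a scale that allows levels of different genes to be compared. Kcnd2, the pore subunit of the fast transient outward current, was highest at 871 ± 75.7 per kb (SD, n = 3), with Kcnip2, its accessory subunit, at 704 ± 24.9 and Kcnq1, the pore of the slow delayed rectifier, at 671 ± 48.9. Kcnd2 stood above Kcnip2 in every library, while the ranges of Kcnip2 and Kcnq1 overlapped. Next came Kcnj3 at 544 ± 75.9, Kcnk3 at 535 ± 44.8 and Kcnj11 at 508 ± 99.3, whose ranges overlapped one another. The first 10 genes of the order held 72.5% of the summed level.

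Promoter windows from RefSeq (build GRCm38.p6, which is mm10) run from 250 bases before to 50 bases after an annotated start. They were present for 67 of the 92 channel genes, in 92 windows. Those of 6 genes are given, chosen after their values were seen, from the transient outward and acetylcholine-gated channels that fell in MI (Kcnip2, Kcnd2, Kcnj3 and Kcnj5) and the leukocyte channels that rose (Kcnn4 and Kcnk13). The windows lie at chr19:45816014-45816313 on the minus strand for Kcnip2, chr6:21215096-21215395 on the plus strand for Kcnd2, chr2:55435720-55436019 on the plus strand for Kcnj3, chr9:32344295-32344594 on the minus strand for Kcnj5, chr7:24370013-24370312 on the plus strand for Kcnn4 and chr12:99964249-99964548 on the plus strand for Kcnk13. Capitals mark matches on either strand to any of 4 motifs that promoters often hold. The GC box, a site of the Sp1 family of factors, was searched as GGGCGG. The CCAAT box, a site of the factor NF-Y, was searched as those 5 letters. The TATA box, which helps to place the start of transcription, was searched as TATAAA. The E-box of the factors that dimerize through a helix-loop-helix domain was searched as CACGTG. No motif holds another, and a match describes the letters only.
Kcnip2: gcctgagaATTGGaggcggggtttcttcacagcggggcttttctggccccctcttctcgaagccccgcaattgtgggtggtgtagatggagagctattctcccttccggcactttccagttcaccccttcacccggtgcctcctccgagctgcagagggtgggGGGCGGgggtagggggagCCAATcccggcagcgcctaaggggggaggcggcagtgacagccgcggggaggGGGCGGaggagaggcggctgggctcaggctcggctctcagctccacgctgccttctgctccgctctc
Kcnd2: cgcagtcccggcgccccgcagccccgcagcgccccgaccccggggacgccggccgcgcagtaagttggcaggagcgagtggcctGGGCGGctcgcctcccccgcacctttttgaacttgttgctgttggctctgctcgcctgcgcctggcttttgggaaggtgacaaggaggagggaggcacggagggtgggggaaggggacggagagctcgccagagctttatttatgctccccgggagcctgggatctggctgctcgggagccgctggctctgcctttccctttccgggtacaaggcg
Kcnj3: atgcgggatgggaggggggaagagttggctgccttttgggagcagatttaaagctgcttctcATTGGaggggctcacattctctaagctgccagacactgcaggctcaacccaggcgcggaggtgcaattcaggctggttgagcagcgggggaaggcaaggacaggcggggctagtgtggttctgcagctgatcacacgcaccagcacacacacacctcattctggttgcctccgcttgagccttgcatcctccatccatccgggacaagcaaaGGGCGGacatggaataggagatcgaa
Kcnj5: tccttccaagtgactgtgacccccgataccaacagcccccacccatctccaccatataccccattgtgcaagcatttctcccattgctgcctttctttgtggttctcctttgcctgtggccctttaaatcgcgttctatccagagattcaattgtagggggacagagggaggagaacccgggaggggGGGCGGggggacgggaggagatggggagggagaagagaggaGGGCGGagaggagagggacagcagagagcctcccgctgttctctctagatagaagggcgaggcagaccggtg
Kcnn4: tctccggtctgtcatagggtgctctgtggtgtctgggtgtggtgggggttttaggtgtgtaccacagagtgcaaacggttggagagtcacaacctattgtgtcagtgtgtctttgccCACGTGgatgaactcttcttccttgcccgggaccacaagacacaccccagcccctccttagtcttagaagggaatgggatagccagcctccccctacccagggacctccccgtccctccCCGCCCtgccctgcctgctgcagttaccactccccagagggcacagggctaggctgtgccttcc
Kcnk13: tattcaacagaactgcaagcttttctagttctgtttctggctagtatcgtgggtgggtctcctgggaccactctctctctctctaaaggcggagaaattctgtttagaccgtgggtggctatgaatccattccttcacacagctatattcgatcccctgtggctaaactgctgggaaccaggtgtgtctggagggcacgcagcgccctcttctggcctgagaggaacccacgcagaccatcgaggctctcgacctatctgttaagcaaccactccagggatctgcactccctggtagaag
The GC box was in 56.2% of the windows of members lower in MI in both genotypes (9 of 16) and in 45.5% of the windows of those higher (5 of 11), against 47.8% of the 92 windows of all channel genes and 35.7% of all 32851 windows. The TATA box was in 0 of 16 and 1 of 11 windows, against 5.43% of the channel gene windows and 13.6% of all windows. The CCAAT box was in 25.0% and 27.3%, against 30.4% and 37.4%, and the E-box in 6.25% and 18.2% (1 and 2 windows), against 7.61% and 7.15%. The median number of CpG was 14.5 in the windows of members that fell and 9 in those of members that rose, against 9 in the windows of all channel genes and 7 over all windows.

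MI against sham in PKM2fl/fl hearts was compared to ask which channel genes differed 3 days after infarction. Of the 63 genes tested, 25 were lower and 12 higher in MI (limma-trend, adjusted p under 0.05), which is 39.7% and 19.0%. Over all 20576 genes tested, 25.3% were lower and 24.8% higher. At least 2-fold lower were 19 and at least 2-fold higher 11 channel genes, against 11.1% and 12.4% of all genes. The count of 11 was 7 under scaling to total counts, and without the libraries over 40% rRNA-related reads the counts were 11 lower and 5 higher. The median log2 fold change was -0.45 for the channel genes and -0.0025 over all genes. In PKM2-/- hearts, 29 of the 63 genes were lower and 12 higher in MI, against 28.1% and 28.7% of all genes, and 23 and 11 of them changed at least 2-fold, against 14.3% and 14.5% of all genes. Under scaling to total counts, which moves the median of all genes by 0.52 on the log2 scale in PKM2-/- hearts, 20 channel genes were lower and 15 higher there. A gene that reached the filter only through the side where it is high was favoured to differ, though not bound to be called. Kcnj10, Kcna3, Kcne3 and Kcnq3 had a mean under 10 over the 10 baseline and sham libraries, and Kcnc4 and Kcnc1 had such a mean over the 6 MI libraries. Of these, Kcnj10 and Kcnc4 were called in neither genotype. Among the 57 members that reached it on both sides, 24 were lower and 9 higher in PKM2fl/fl, and 28 and 10 in PKM2-/-.

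The MI comparisons of the genotypes set different libraries against each other, but they share the spread per gene, which was pooled over all groups. A gene with a small pooled spread was therefore favoured in both lists, so the calls of the genotypes are not independent. Of the 25 genes lower in PKM2fl/fl, 24 were also lower in PKM2-/- (96.0% of the first list and 82.8% of the second), and 10 of the 12 higher genes of each genotype were shared (83.3% of each). Over all genes tested the same shares were 85.6% and 77% for lower and 87.6% and 75.7% for higher genes. Kcnip2, Kcnd2, Kcnd3 and the inward rectifiers Kcnj2 and Kcnj12 were among the shared losses, and Kcnn4, Kcnk13 and Kcnj15 among the shared gains. 19 genes were called in neither genotype. In the plot of fold changes, points left of 0 outnumber those to the right.

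**Figure D1:**
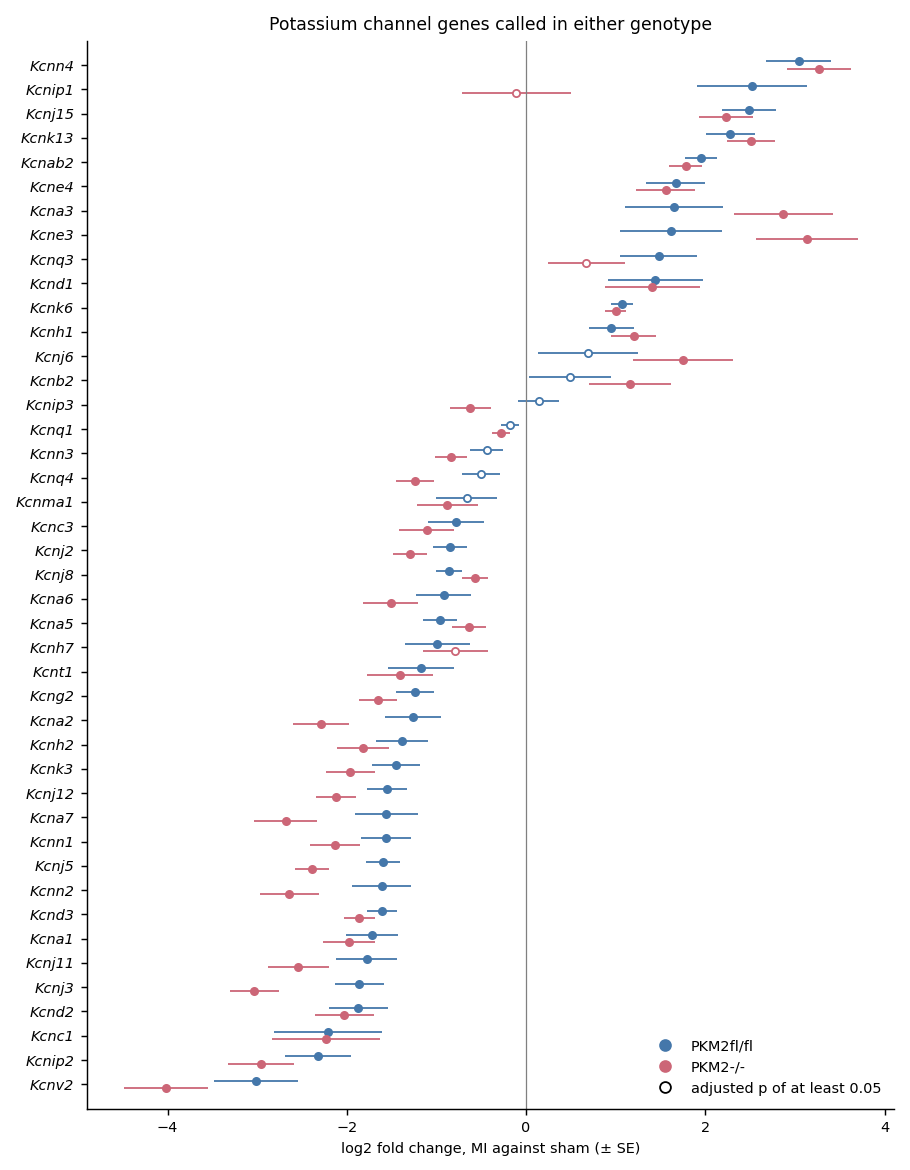
Log2 fold change of MI against sham (x axis, ± SE) for the channel genes called in either genotype (y axis, 1 gene not drawn), in PKM2fl/fl (blue) and PKM2-/- (red). Open circles have an adjusted p of at least 0.05. Kcnv2 lies lowest, at -3.01 and -4.02, and Kcnn4 highest, at 3.04 and 3.27.

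Among the 6 genes of the transient outward current, 3 were lower and 2 higher in each genotype. Over all genes tested, 25.3% were lower and 24.8% higher in PKM2fl/fl, and 28.1% and 28.7% in PKM2-/-. Kcnip2, the accessory subunit needed for a full fast transient outward current, had normalized counts of 2712, 2855 and 2905 in sham and 832, 992 and 217 in MI in PKM2fl/fl hearts. In PKM2-/- hearts the counts were 2116, 2086 and 2297 in sham and 247, 286 and 303 in MI. The MI and sham libraries did not overlap in either genotype, and the third PKM2fl/fl MI library was the lowest of all. The log2 fold change was -2.32 ± 0.37 (SE) in PKM2fl/fl (adjusted p = 9.81e-05) and -2.96 ± 0.37 in PKM2-/- (adjusted p = 7.73e-06).

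Kcnd2 had normalized counts of 5213, 5369.6 and 4545 in sham and 1886, 2013 and 691 in MI in PKM2fl/fl hearts, and 3696, 6149.8 and 4874 in sham and 1400.0, 1045 and 1112 in MI in PKM2-/- hearts. It fell with MI in each genotype, with log2 fold changes of -1.87 ± 0.33 (adjusted p = 2.30e-04) and -2.03 ± 0.33 (adjusted p = 8.08e-05). In the PKM2-/- baseline libraries it was 14827 and 9502, above every other library. Kcnd3, the related pore subunit, had a log2 fold change of -1.61 ± 0.17 in PKM2fl/fl (adjusted p = 3.18e-06) and -1.86 ± 0.17 in PKM2-/- (adjusted p = 5.77e-07). Kcnd3 overlaps the antisense transcript Kcnd3os, and the library kit does not mark strand, so their reads cannot be told apart where they overlap. Kcna4, the pore of the slow transient outward current, had a log2 fold change of -0.70 in PKM2fl/fl and -0.19 in PKM2-/-, with adjusted p of 0.159 and 0.712. Kcne3, an accessory subunit, and Kcnd1 rose, with log2 fold changes of 1.62 and 1.44 in PKM2fl/fl and 3.13 and 1.41 in PKM2-/-. Both calls in PKM2fl/fl were lost with no filter and without the first or the third sham library and the first or the third MI library, each left out alone, where the log2 fold changes were 1.24 to 1.58 for Kcne3 and 1.23 to 1.42 for Kcnd1. In PKM2-/- the Kcnd1 call was lost with no filter, with only the groups compared, without the second or the third MI library and without the third sham library, which gave 0.73. Kcne3 averaged 9.80 normalized counts over the baseline and sham libraries and reached the filter only through MI.

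The voltage-gated pore genes Kcna1, Kcna2, Kcna5, Kcna6 and Kcnc1 were lower in MI in both genotypes. Kcna5, the pore of the ultrarapid current, was lower in MI with log2 fold changes of -0.96 ± 0.19 (adjusted p = 7.37e-04) and -0.64 ± 0.19 (adjusted p = 0.0105). The Kcna5 call in PKM2-/- hearts was lost under total count scaling, at -0.13, and without the second sham library, at -0.49. The other 4 genes had log2 fold changes of -0.92 to -2.21 in PKM2fl/fl and -1.51 to -2.29 in PKM2-/-. The Kcna6 call in PKM2fl/fl was lost without the first or the second sham library and the first or the third MI library, each left out alone, at -0.81 to -0.90, and Kcnc1 reached the filter only through the baseline and sham libraries.

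Of the rapid and slow delayed rectifier genes, Kcnh2, the pore of the rapid component, was lower in both genotypes. Its normalized counts were 958, 1026 and 1275 in sham and 504, 599 and 233 in MI in PKM2fl/fl hearts, and 1027, 1264 and 1205 in sham and 486, 278 and 263 in MI in PKM2-/- hearts. The log2 fold changes were -1.38 ± 0.29 (adjusted p = 8.89e-04) and -1.82 ± 0.29 (adjusted p = 6.54e-05). Kcnq1 differed by less. It had 3201, 3428 and 3703 normalized counts in sham and 2886, 3229 and 2976 in MI in PKM2fl/fl hearts, with a log2 fold change of -0.18 ± 0.10 (adjusted p = 0.140), and -0.28 ± 0.10 in PKM2-/- hearts (adjusted p = 0.0253). Its sign in PKM2-/- hearts turned under total count scaling, and the call was also lost with no filter. Kcnq1 overlaps the antisense transcript Kcnq1ot1, which had log2 fold changes of -0.03 and -0.01. Kcne1, its accessory subunit, was not called in either genotype.

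Of the inward rectifier IK1 genes, which hold the resting potential, Kcnj2 and Kcnj12 were lower in both genotypes. Kcnj2 had normalized counts of 1471, 1433 and 1639 in sham and 989, 948 and 625 in MI in PKM2fl/fl hearts, and 902, 1401 and 1215 in sham and 375, 532 and 518 in MI in PKM2-/- hearts. The log2 fold changes were -0.85 ± 0.19 (adjusted p = 0.00165) and -1.30 ± 0.19 (adjusted p = 3.61e-05). Kcnj12 had log2 fold changes of -1.55 ± 0.22 (adjusted p = 4.26e-05) and -2.12 ± 0.22 (adjusted p = 1.82e-06). Kcnj14 was uneven among libraries of one group. It had 219 and 236 normalized counts in 2 PKM2fl/fl sham libraries and 9.80 in the third, against 4.66 to 38.6 in the other 13 libraries, and it was not called in either genotype. In PKM2fl/fl hearts edgeR and DESeq2 did call it lower, at -2.23 and -2.24 on the log2 scale, and so did the fit without the third sham library, at -2.76. In PKM2-/- hearts it was called higher under total count scaling, at 2.09, by edgeR without a filter, at 1.75, and with only the groups compared or without the third PKM2fl/fl sham library, at 1.63.

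Both acetylcholine-gated channel genes, Kcnj3 and Kcnj5, which carry the current that slows the heart under vagal input, fell and were among the members that also differed between the genotypes after MI. Kcnj3 had normalized counts of 2720.1, 2971 and 3558 in sham and 816, 1363 and 534 in MI in PKM2fl/fl hearts. In PKM2-/- hearts they were 2112, 2711 and 2511 in sham and 435, 265 and 226 in MI. The log2 fold change of MI against sham was -1.86 ± 0.27 (adjusted p = 5.19e-05) in PKM2fl/fl and -3.03 ± 0.27 (adjusted p = 5.29e-07) in PKM2-/-. Kcnj5 had 1329, 1391 and 1387 in sham and 485, 637 and 294 in MI in PKM2fl/fl hearts, and 1064, 1075 and 1051 in sham and 203, 206 and 196 in MI in PKM2-/- hearts. Its log2 fold changes were -1.60 ± 0.19 (adjusted p = 7.96e-06) and -2.39 ± 0.19 (adjusted p = 1.78e-07). The atrial marker genes, to which atrial tissue in a sample would add, summed to 313 to 1277 in PKM2fl/fl sham, 353 to 1487 in PKM2-/- sham, 145 to 592 in PKM2fl/fl MI and 142 to 848 in PKM2-/- MI libraries, and the part of such tissue in these results was not tested.

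Of the ATP-sensitive channel genes, Kcnj11, the cardiomyocyte pore subunit, fell, with log2 fold changes of -1.78 ± 0.34 in PKM2fl/fl (adjusted p = 4.69e-04) and -2.54 ± 0.34 in PKM2-/- (adjusted p = 1.48e-05). Its counts were 1847, 1515 and 2244 in sham and 699, 882 and 252 in MI in PKM2fl/fl hearts, and 2092, 2357 and 2309 in sham and 557, 300.4 and 346 in MI in PKM2-/- hearts. The MI libraries lay below all sham libraries. Kcnj8, the pore expressed in vascular smooth muscle, fell, with log2 fold changes of -0.86 ± 0.15 in PKM2fl/fl (adjusted p = 2.14e-04) and -0.57 ± 0.15 (adjusted p = 0.00416) in PKM2-/- hearts, where total count scaling ended the call. Both sulfonylurea receptor partners of these channels, Abcc8 and Abcc9, were lower in MI in each genotype.

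Of the 14 two-pore genes, which carry background potassium currents, 6 passed the filter. Kcnk3 was lower, with normalized counts of 5279, 4494 and 5126 in sham and 2362, 2627 and 969 in MI in PKM2fl/fl hearts, and 5032, 5408 and 5169 in sham and 1682, 1199 and 1176 in MI in PKM2-/- hearts. Its log2 fold changes were -1.45 ± 0.27 (adjusted p = 3.90e-04) and -1.96 ± 0.27 (adjusted p = 1.89e-05). Kcnk2, the mechanosensitive channel, had log2 fold changes of -0.17 (adjusted p = 0.391) and -0.30 (adjusted p = 0.115). Kcnn2, a small conductance calcium-activated channel, fell, with log2 fold changes of -1.61 ± 0.33 (adjusted p = 7.82e-04) and -2.64 ± 0.33 (adjusted p = 7.46e-06). In PKM2fl/fl hearts its counts were 1386, 1829 and 3012 in sham and 507, 1226 and 433 in MI. Without the libraries holding over 40% rRNA-related reads, which left 1 PKM2fl/fl MI library, its log2 fold change there was -0.68 and was not called. The plot of repolarizing channels draws a part of those tested and gives every library.

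**Figure D2:**
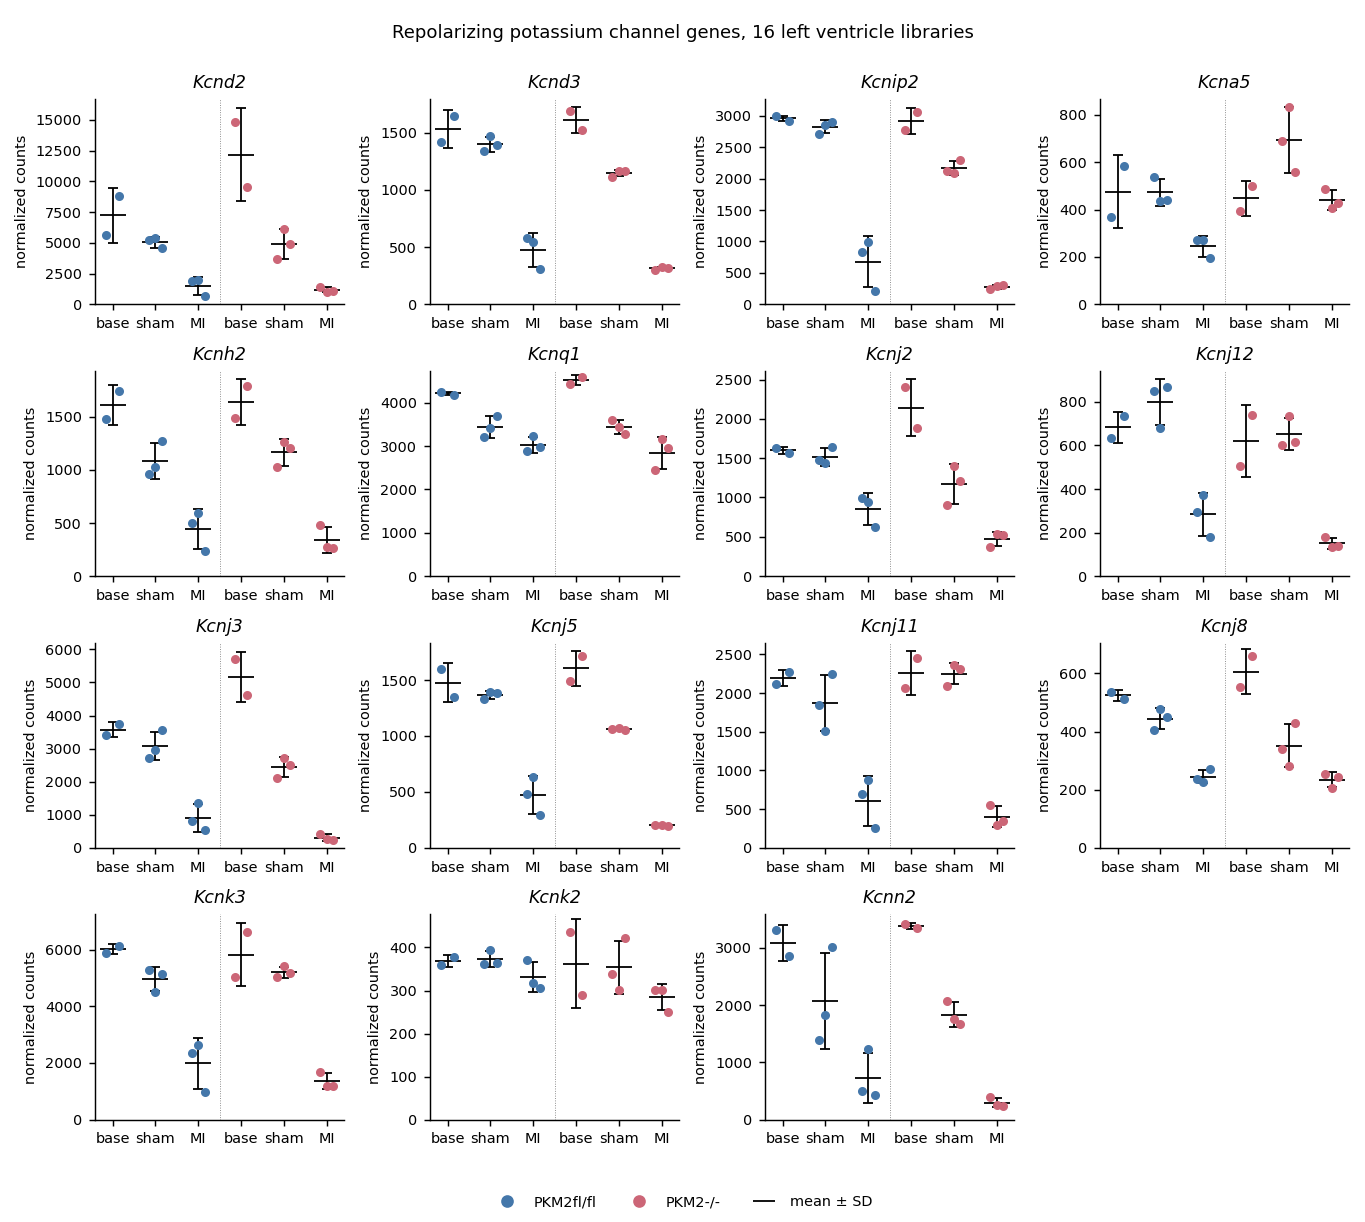
Normalized counts (y axis) of 15 repolarizing channel genes in each library of the 6 groups (x axis, baseline, sham and MI for PKM2fl/fl in blue and PKM2-/- in red), with mean ± SD. For the genes drawn, every MI point lies below every sham point of the same genotype, except for Kcnk2 in both and Kcnq1 in PKM2fl/fl. Kcna4, Kcne1 and Kcnj14 were tested, were called in neither genotype and are not drawn. The share of all genes that separate in this way was not computed.

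Of the other members that were lower in MI, 5 with the smallest p in each genotype were named. Kcnv2, a silent subunit, had normalized counts of 233, 259.7 and 172 in sham and 52.6, 36.4 and 9.15 in MI in PKM2fl/fl hearts, and 135, 206 and 201 in sham and 11.3, 7.62 and 11.5 in MI in PKM2-/- hearts. The log2 fold changes were -3.01 ± 0.47 (adjusted p = 8.96e-05) and -4.02 ± 0.47 (adjusted p = 4.61e-06). Kcng2, also a silent subunit, had log2 fold changes of -1.24 and -1.65. Kcna1, Kcna2, Kcna7 and Kcnn1 had log2 fold changes of -1.26 to -1.72 in PKM2fl/fl and -1.97 to -2.68 in PKM2-/-. Without the libraries over 40% rRNA-related reads, Kcna2 and Kcna7 were no longer called in PKM2fl/fl hearts, at -0.41 and -0.86.

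All 5 genes listed as leukocyte channels were higher in MI in both genotypes, with median log2 fold changes of 1.95 and 2.51. Over all genes tested, 24.8% were higher in PKM2fl/fl and 28.7% in PKM2-/-. The list was chosen with earlier results of these data known, so its count is a description. Kcna3, 1 of the 5, reached the filter only through its MI libraries. Kcnn4, the intermediate conductance calcium-activated channel of lymphocytes and macrophages, had normalized counts of 12.9, 24.6 and 20.6 in sham and 161, 159.7 and 165 in MI in PKM2fl/fl hearts, and 25.7, 13.1 and 19.4 in sham and 235, 168 and 173 in MI in PKM2-/- hearts. The log2 fold changes were 3.04 ± 0.36 (adjusted p = 8.98e-06) and 3.27 ± 0.36 (adjusted p = 2.96e-06). Kcnk13, a two-pore channel expressed in macrophage-lineage cells, rose by 2.28 and 2.51. Its counts were 224, 154 and 113 in sham and 728, 535 and 1166 in MI in PKM2fl/fl hearts. Kcnab2, an accessory subunit, rose by 1.95 and 1.78, and Kcnk6 by 1.07 and 1.00. Kcna3, the voltage-gated channel of T cells and macrophages, had at most 14.4 normalized counts in any baseline or sham library, with a mean of 6.43, and 31.1 to 57.6 in the 6 MI libraries. Its log2 fold changes were 1.65 and 2.87. Its call in PKM2fl/fl was lost with no filter, with a pseudocount of 0.1, under total count scaling and without the third sham or the first MI library, at 1.44 to 1.72. The macrophage and monocyte markers were all higher in both genotypes, 6 of 6, with median log2 fold changes of 2.26 and 2.37. Their summed counts ranged from 4613 to 9122 in sham and from 19571 to 34998 in MI libraries, and their part in these results was not tested. Lymphocyte markers were 29.4 to 51.8 in sham and 43.0 to 91.2 in MI libraries.

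**Figure D3:**
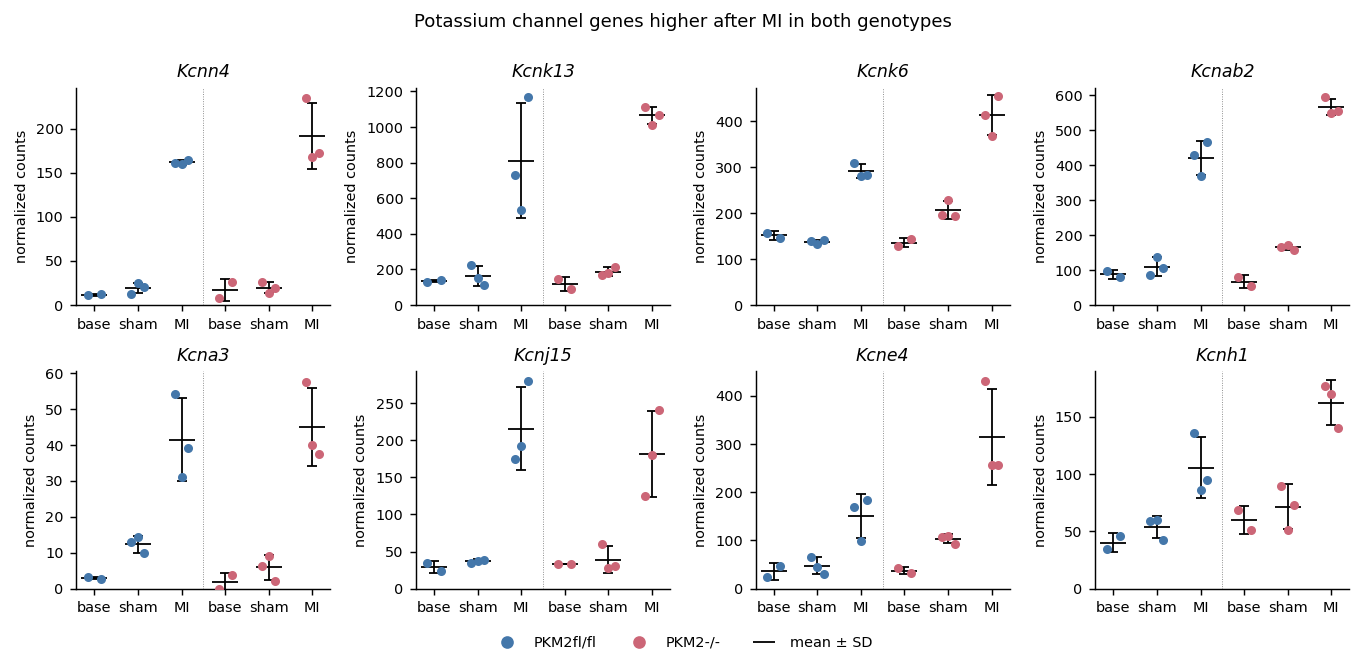
Normalized counts (y axis) of 8 channel genes that were higher in MI in both genotypes, in each library of the 6 groups (x axis), with mean ± SD. Kcnn4 reached 159.7 to 235 in the MI libraries and at most 25.7 in the sham libraries.

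Other members that rose were Kcnj15, an inward rectifier, by 2.49 and 2.23, Kcne4, an accessory subunit that lowers voltage-gated currents, by 1.67 and 1.56, and Kcnh1 by 0.95 and 1.20. Of members outside the naming rule, chosen after their values were seen, Kcnq3 had a log2 fold change of 1.48 in PKM2fl/fl, and Kcnj6 of 1.75 and Kcnb2 of 1.16 in PKM2-/-. Kcnq3 averaged 8.32 normalized counts over the baseline and sham libraries, so that it reached the filter only through MI, and its call was lost under total count scaling. The Kcnj6 call was lost without the second PKM2-/- sham library, at 1.13, and without the third MI library, at 1.59. The Kcnb2 call was lost by edgeR, DESeq2, no filter, only the groups compared and the replicate block, and without some single libraries, among them the third PKM2-/- sham library, which gave 0.57. Kcnip1, which was named after its values were seen, was higher in PKM2fl/fl MI by 2.52 on the log2 scale (adjusted p = 0.00283), but only 2 of its 3 MI libraries were high, at 1056 and 952 against 162. It was 82.1 to 109.8 in the PKM2fl/fl sham libraries and 254, 291 and 758 in the PKM2-/- sham libraries. The 2 high libraries hold 25.1% and 23.0% of their reads on the rRNA-related locus CT010467.1, against 1.72% in the remaining one. Without the libraries over 40% rRNA-related reads, the log2 fold change of Kcnip1 was 0.77 and the call was lost. The part of that locus in the difference was not tested.

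**Figure D4:**
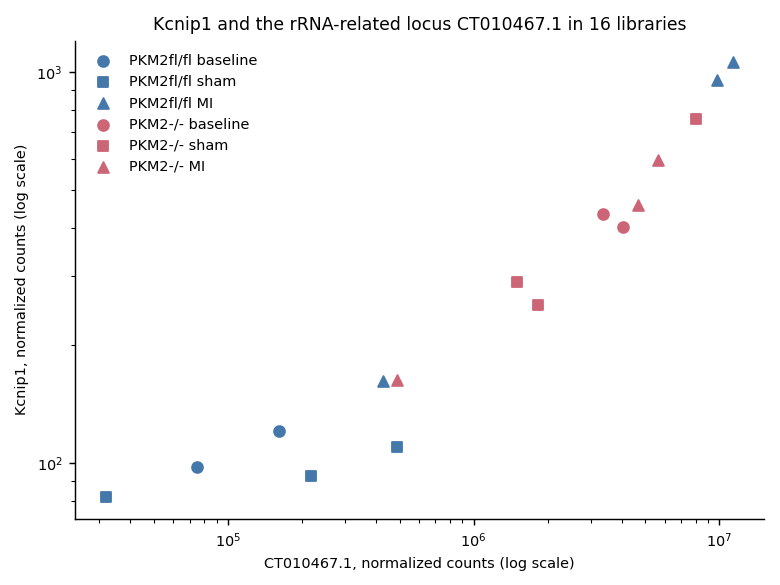
Normalized counts of Kcnip1 (y axis, log scale) against those of CT010467.1 (x axis, log scale) in the 16 libraries, by genotype (colour) and treatment (shape). Pearson's r of the log2 values was 0.96 and Spearman's rho 0.97 across libraries that share these groups and their depth, given as a description.

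Of 16 partner and regulator genes, 14 passed the filter. In both genotypes 10 were lower and 1 higher. Over all genes tested, 25.3% were lower and 24.8% higher in PKM2fl/fl, and 28.1% and 28.7% in PKM2-/-. The list was chosen with earlier results of these data known, so its counts are a description. The lower genes were Abcc8, Abcc9, Amigo1, Lrrc52, Akap9, Dlg1, Irx3, Irx4, Irx5 and Klf15, and Lrrc55 was higher. Abcc9, the sulfonylurea receptor 2, had 8560.5, 8006 and 9035 normalized counts in sham and 3316, 3908 and 2013 in MI in PKM2fl/fl hearts. Klf15, a regulator of the rhythm of Kcnip2, had log2 fold changes of -2.21 and -2.46. Irx5, an iroquois factor that shapes the gradient of the transient outward current across the ventricular wall, had -1.01 and -1.83, and the related Irx3 had -1.56 and -1.58. Over the 8 cardiomyocyte markers the log2 fold changes ranged from -0.74 to -2.23 in PKM2fl/fl and from -1.22 to -2.68 in PKM2-/-.

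Each member was also expressed per 1000 of the summed cardiomyocyte marker counts, a ratio that shows unequal change and not which side moved. Of the 25 members lower in PKM2fl/fl MI, 4 had a ratio in MI above every sham library, 2 below every one and 19 overlapped. In PKM2-/- hearts, 11 of 29 lay above, 6 below and 12 overlapped. These counts were not made over all genes, so they cannot be read as particular to channel genes. Kcnip2 lay below in both genotypes. Its ratio was 2.85, 3.07 and 2.78 in sham and 2.00, 2.52 and 1.23 in MI in PKM2fl/fl, and 2.57, 2.13 and 2.30 in sham and 0.933, 1.49 and 1.63 in MI in PKM2-/- hearts. Kcnv2 lay below in both genotypes too. Kcnj3, Kcnj11, Kcnn2 and Kcna7 lay below in PKM2-/- hearts only, which is not a test of a difference between genotypes. Kcnq1 and Kcna5 lay above in both genotypes. Kcnq1 rose from 3.36 to 3.69 in sham to 6.94, 8.22 and 16.9 in MI in PKM2fl/fl hearts.

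**Figure D5:**
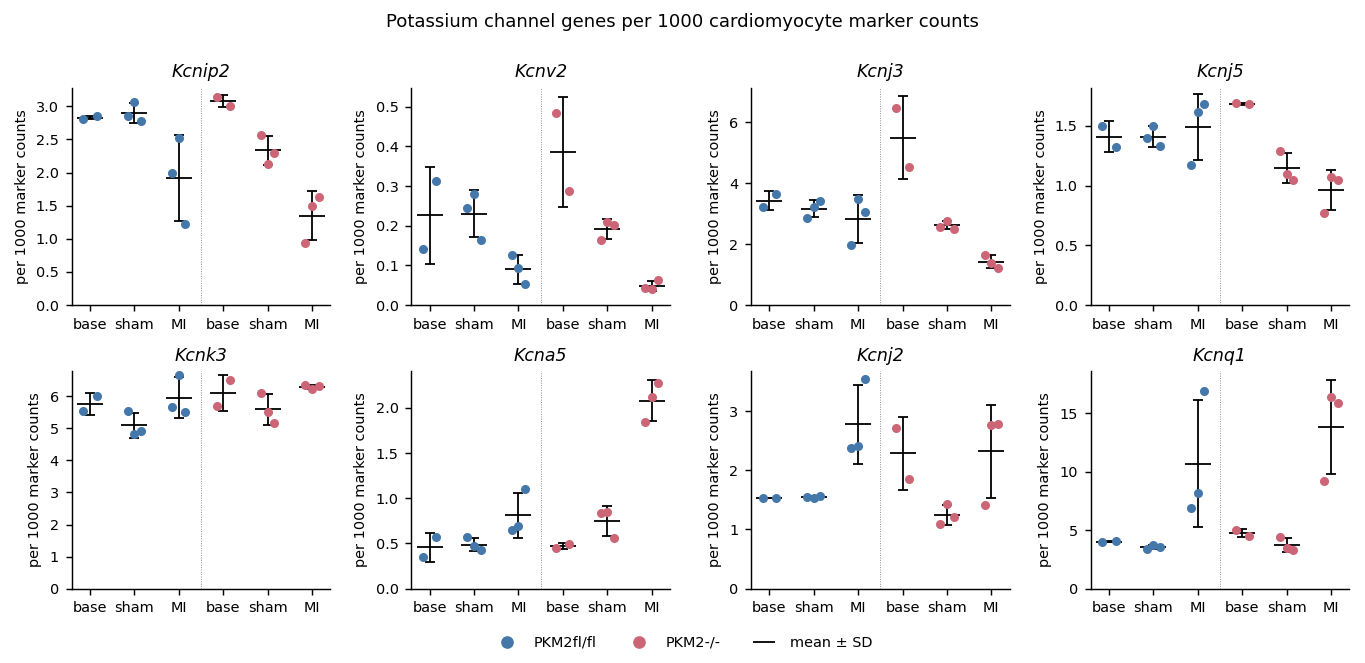
Normalized counts of 8 channel genes per 1000 summed counts of 8 cardiomyocyte markers (y axis) in each library of the 6 groups (x axis), with mean ± SD. Kcnip2 and Kcnv2 have lower ratios in MI than in sham in both genotypes, while Kcna5 and Kcnq1 have higher ones.

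The difference of the MI effect between genotypes was tested as an interaction. No channel gene was called (0 of 63, limma-trend), as for all genes tested, of which 0% were called. An unadjusted p under 0.05 was found for 9 of the 63 channel genes and for 1703 of all 20576 genes. DESeq2 called 0 of the members. The estimate was -1.17 ± 0.39 for Kcnj3 (adjusted p = 0.500), -0.79 ± 0.27 for Kcnj5 (adjusted p = 0.502) and -0.63 ± 0.52 for Kcnip2 (adjusted p = 0.769). Without the third PKM2fl/fl MI library, 7 members were called, all with a larger fall with MI in PKM2-/-, with Kcnip2 at -1.32 and Kcnj3 at -1.49. That library had the lowest cardiomyocyte markers of its group.

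The genotypes were compared directly at each treatment. At baseline no channel gene was called (0 of 63, limma-trend, against 0.00972% of all genes), and DESeq2 called 0. An unadjusted p under 0.05 (limma-trend) was found for 2 of the 63 members and for 748 of all 20576 genes. After sham surgery no channel gene was called either, against 0.00972% of all genes, and DESeq2 called 2. Here 9 of the 63 members and 2047 of all 20576 genes had an unadjusted p under 0.05 (limma-trend). After MI, Kcna5 was higher and Kcnj3 and Kcnj5 were lower in PKM2-/- than in PKM2fl/fl hearts, which is 1.59% and 3.17% of the 63, against 0.394% and 0.573% of all genes. Kcnj5 differed by -1.15 ± 0.19 on the log2 scale (adjusted p = 0.0234), Kcnj3 by -1.50 ± 0.27 (adjusted p = 0.0290) and Kcna5 by 0.86 ± 0.19 (adjusted p = 0.0494). The Kcna5 call was lost under TMM factors, a pseudocount of 0.1, no filter, edgeR, the replicate block and leaving out single libraries of other groups, with the log2 difference at 0.84 to 0.86. All 3 calls were lost under total count scaling and with only the groups compared.

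Kcna5 counts were 271, 271 and 194 in the PKM2fl/fl MI and 489, 408 and 426 in the PKM2-/- MI libraries, and the ranges of all 3 genes did not overlap. Per 1000 cardiomyocyte marker counts, Kcnj5 was 1.17, 1.62 and 1.68 in PKM2fl/fl MI and 0.768, 1.07 and 1.05 in PKM2-/- MI. Kcnj3 was 1.96, 3.47 and 3.04 against 1.64, 1.38 and 1.22, and Kcna5 0.651, 0.690 and 1.10 against 1.84, 2.12 and 2.28. The count of called members rested on single libraries. It was 20 without the third PKM2fl/fl MI library, 0 without the first or the second or without the third PKM2-/- one, and 1 without the first or the second PKM2-/- MI library. DESeq2 called 12 members. The 12 included Kcnip2, Kcnd3, Kcnj2, Kcnj12, Kcna2 and Kcnn2 as lower and Kcnk6 and Kcne4 as higher in PKM2-/-.

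Sham surgery was compared with baseline in each genotype. In PKM2fl/fl hearts no channel gene was called (0 of 63, limma-trend, against 0.190% of all genes), and DESeq2 called 2. An unadjusted p under 0.05 (limma-trend) was found for 8 of the 63 members and for 1813 of all 20576 genes. In PKM2-/- hearts 5 members were higher and 2 lower after sham surgery, which is 7.94% and 3.17%, against 3.48% and 1.66% of all genes. Kcnab2 had 79.3 and 53.1 normalized counts at baseline and 166, 171 and 158 after sham surgery, a log2 fold change of 1.33 ± 0.20 (adjusted p = 0.00258). The others higher were Kcne4 by 1.45, Kcnh4, an ether-a-go-go channel, by 2.08, Kcnn3 by 0.76 and Kcnk6 by 0.60. The calls of Kcne4, Kcnh4 and Kcnn3 were lost by edgeR and with no filter.

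The 2 lower members were Kcnj8, with counts of 552 and 659.7 at baseline and 341, 282 and 430.4 after sham surgery, at -0.80 ± 0.17 (adjusted p = 0.0119), and Kcnj2, with 2399 and 1886 at baseline and 902, 1401 and 1215 after sham surgery, at -0.88 ± 0.21 (adjusted p = 0.0268). Baseline PKM2-/- libraries held 43.8% and 39.6% rRNA-related reads and sham libraries 28.5%, 29.4% and 46.0%, and the neutrophil markers, 5 of 5, were higher after sham surgery, their summed counts being 132 to 167 at baseline and 974 to 1254 after sham surgery. The part of either was not tested. Without the second PKM2-/- baseline library only Kcnab2 was called, and without the third PKM2fl/fl MI library 14 members were called, since the fit pools the spread of all groups. With the replicate number as a block, 3 members were higher (Kcnab2, Kcne4 and Kcnk6) and 1 lower (Kcnj8), and the call of Kcnj2 was lost. Leaving out the libraries over 40% rRNA-related reads left 1 PKM2-/- baseline library. The log2 fold changes were then 1.64 for Kcnab2, 1.00 for Kcnn3 and -1.09 for Kcnj8. The calls of Kcnj2, Kcnk6, Kcne4 and Kcnh4 were lost there.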

How the data were processed

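RNA from left ventricles of 16 mice was sequenced after rRNA depletion with a kit that does not mark strand. Per the labels and the study's methods, HISAT2 was used for alignment (mm10), featureCounts for counting and DESeq2 for size factors. The authors deposited 1 normalized signal per gene and library, which is a count over that size factor. The versions, and the strand and multi-mapping settings, are not given in the sources used here. Columns of the authors' own baseline comparison (mean, log2 fold change, error, Wald score, p-value and adjusted p-value) were deposited in the same table and were not used.

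The values were whole multiples of a step per library (100.0000% of values within 0.1 read), so reads were recovered by division. The members and gene lists were chosen with earlier results of these data known. limma 3.58.1 (R 4.3.3) with a trend was fitted to log2(value + 1) over all 16 libraries in 6 groups, keeping the 20576 genes whose mean reached 10, with Benjamini-Hochberg adjustment and calls at adjusted p under 0.05. A fold change on this scale understates the change of low genes. Groups and replicate numbers came from the sample labels. The p-values and SEs rest on a spread per gene pooled over the 6 groups, so they can understate the spread of a more variable group. For Kcnip2 the SD was 60.2% of the mean in PKM2fl/fl MI and 3.54% in PKM2fl/fl sham. For Kcnq1 it was 5.86% and 7.29%. Named genes were the repolarizing channels, the 5 others with the smallest p per direction and genotype in MI, and members called elsewhere; 1 named gene is counted but not reported here. Alternatives were other scalings, edgeR 4.0.16 and DESeq2 1.42.0 on the recovered reads, another pseudocount, no filter, only the groups compared, array weights, a replicate block and leaving out each library, and, chosen after seeing the data, leaving out libraries over 40% rRNA-related reads. On simulated data for MI against sham in PKM2fl/fl with 20576 genes, limma recovered 93% of 2-fold and 100% of 4-fold changes, with 8 false calls. In the simulation 100 genes changed by each size and every gene had the same relative spread beyond counting error. The changed genes were drawn only from genes with means well above the filter, so recovery of genes near the filter was not measured. The real libraries differ in spread and in the share of genes called, so these shares do not measure the power of the real comparison. Exon lengths came from GENCODE M39 and promoter windows from RefSeq. Shares of reads carry 95% Wilson intervals that cover counting error only.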

Additional observations from a re-analysis of the deposited data

Results flagged for a closer look

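The genotype difference, PKM2-/- against PKM2fl/fl, moved in opposite directions at different treatments for 5 genes between baseline and MI and for 5 genes between baseline and sham, with every library of one genotype on one side at each treatment. The difference between treatments was not tested, and with 2 libraries against 2 at baseline such a separation is common. There 27 of the 63 members were separate, though no member was called. The share of all genes that were separate at baseline was not computed, so the 27 cannot be read as particular to channel genes. Between baseline and MI, the log2 differences were 0.25 and -1.35 for Kcna2, 0.41 and -0.83 for Kcnj2, 0.52 and -1.50 for Kcnj3, 0.13 and -1.14 for Kcnn2, and -0.15 and 0.50 for Kcnk6. Between baseline and sham, the second value was -0.33 for Kcna2, -0.39 for Kcnj2, -0.33 for Kcnj3 and 0.57 for Kcnk6, and Kcnk7 had -0.84 at baseline and 0.45 after sham surgery. The baseline values are the same in both sets. PKM2-/- baseline libraries held more rRNA-related reads, 43.8% and 39.6% against 17.2% and 22.1%, and the part of this was not tested.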

How the results depend on the processing

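The counts of channel genes called in MI against sham were close under most alternatives. Leaving out each library gave 32 to 37 in PKM2fl/fl (10 to 13 higher and 22 to 25 lower) and 36 to 42 in PKM2-/- (9 to 12 higher and 26 to 30 lower). Leaving out the libraries over 40% rRNA-related reads, chosen after seeing the data, left 1 PKM2fl/fl MI library, assumed to vary like the other groups, and gave 24 called in PKM2fl/fl with 5 higher, 3 for the difference of the MI effect and 14 for the genotypes after MI. Leaving out each library gave 0 to 7 for the difference of the MI effect, 0 to 0 for the genotypes at baseline, 0 to 1 after sham, 0 to 20 after MI, 0 to 1 for sham against baseline in PKM2fl/fl and 1 to 14 in PKM2-/-. edgeR without a filter called 9 for the difference, 2 at baseline, 4 after sham, 16 after MI, and 4 and 17 for sham against baseline in PKM2fl/fl and PKM2-/-. DESeq2 called 2 after sham, 12 after MI and 2 for sham against baseline in PKM2fl/fl. Array weights called 19 after MI and 2 for sham against baseline in PKM2fl/fl. With only the groups compared, 1 was called at baseline and 0 after MI. Total count scaling called 2 after sham, 0 after MI and 3 for sham against baseline in PKM2-/-, and no filter called 4 in the last. The replicate block called 4 there. The replicate numbers did not pair the animals: over 36 same-number pairs the correlation of deviations had a median of -0.0266 and 1 was over 0.1. The cause of these differences was not tested.

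Kcnq1 in PKM2-/- MI was the 1 called value whose sign turned. In PKM2-/- MI against sham, total count scaling gave 0.30 for Kcna4, 0.07 for Kcne1, 0.21 for Kcnk2, 0.23 for Kcnq1 and 0.40 for Kcnip1, and total count scaling without rRNA-related loci gave 0.14 for Kcna4, 0.05 for Kcnk2, 0.07 for Kcnq1 and 0.24 for Kcnip1. Leaving out a library gave -0.50 to 0.26 for Kcna4, -0.08 to 0.54 for Kcnh4, and -0.49 to 0.44 for Kcnip1. Array weights gave 0.31 and the removal of libraries over 40% rRNA-related reads 0.38 for Kcnip1. In PKM2fl/fl, total count scaling gave -0.04 for Kcnip3, and that removal -0.18 for Kcnb2. Of 3024 alternative values for single genes, 2780 kept direction and call, 205 lost the call, 20 gained it and 19 changed sign. Depth limits the 29 untested members.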

Other observations

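Some channel genes that lie within 500 kb of one another had the same direction after MI and others did not; the examples were chosen after their values were seen. On chromosome 6, Kcna5, Kcna1 and Kcna6 were lower in both genotypes. On chromosome 3, Kcna3 was higher and Kcna2 lower in both genotypes. On chromosome 16, Kcnj15 was higher in both genotypes and its neighbour Kcnj6 was called in PKM2-/- hearts, at 1.75. On chromosome 7, Kcna7, Kcnj11 and Kcnc1 were lower in both genotypes, and Kcnj14 was not called.

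Kcnh6, an ether-a-go-go channel chosen after its values were seen, had 28.2 normalized counts in 1 PKM2fl/fl sham library and 41.0 in 1 PKM2-/- sham library, against 98.9 to 159 in the other 14 libraries. Kcnh6 was not called in any comparison.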
